A study of Mus musculus with 11 samples.

Results

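Microglia of mice that carry human P301S tau were compared with microglia of mice without the transgene, with the kinase IKKβ intact in both groups. Microglia were taken from the cortical nuclei as those with 300 to 8000 genes, at most 5% mitochondrial UMIs, at least 3 of the 8 genes Inpp5d, Csf1r, Ly86, Siglech, Selplg, Ikzf1, Runx1 and Dock8 detected, and at most 1 UMI of Slc17a7, a transporter of excitatory neurons. A UMI is a molecular tag, so that each count stands for 1 captured RNA molecule. This gave 2769 microglia among 72722 nuclei of the 7 mice, of which 1261 came from 4 non-transgenic mice and 1508 from 3 P301S mice. The whole series holds 112539 nuclei that passed the same limits in 11 mice. Raw UMIs were summed over the microglia of each mouse, and the mouse was the unit of every comparison.

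Non-transgenic mice had the genotype ikbkb+/+ and P301S mice ikbkb+/+;P301S+. Each group held mice of both breeding lines of the study. Non-transgenic replicates 1 and 2 and P301S replicates 1 and 2 came from the floxed Ikbkb line, in which Ikbkb is flanked by recombination sites but intact as long as no Cre recombinase is present. Non-transgenic replicates 3 and 4 and P301S replicate 3 came from the active IKKβ line, in which a constitutively active IKKβ stays silent without Cre. By the study's methods these control mice lacked the Cre recombinase under Cx3cr1 and were also given tamoxifen, the drug that switches that Cre on. The mice are female by the labels, whereas the study's methods give males for RNA sequencing. In the microglial sums Xist, the RNA of the inactive X chromosome, stood at 1443 to 1826 CPM (counts scaled to a library of 1e6) in the 7 mice, and 4 Y-linked genes had 14 UMIs in all. The non-transgenic mice were 10.03, 10.03, 10.85 and 9.8 months old and the P301S mice 9.15, 10.03 and 10.75 months old, in replicate order. The tau transgene is driven by the mouse prion promoter, and the study describes neurons as expressing it. Neither the RNA of the transgene in each cell type nor tau pathology was measured here. The other 4 mice of the series, 2 with Ikbkb deleted in microglia and P301S and 2 with active IKKβ and P301S, entered the fits to estimate the spread.

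Microglia are the resident macrophages of the brain. In the healthy cortex they express a homeostatic programme that includes P2ry12, Tmem119, Cx3cr1 and the transcription factor Sall1. Next to protein deposits and dying neurons they take up a disease-associated microglia (DAM) programme, marked by Apoe, Axl, Lpl, Cst7, Itgax and Csf1, in part through the receptor Trem2 and its adaptor Tyrobp. IKKβ phosphorylates the inhibitor of NF-κB and thereby frees NF-κB to enter the nucleus, where it drives inflammatory genes and its own inhibitors.

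The 7 libraries held 9321 to 12315 barcodes, and the microglial sums held 597089 to 2334409 UMIs per mouse. Microglia numbered 253, 317, 289 and 402 in the non-transgenic mice and 297, 384 and 827 in the P301S mice. P301S replicate 3 stood apart by its number of microglia, which made up 7.59% of its nuclei against 2.66% and 3.15% in the other P301S mice and 2.68 to 4.17% in the non-transgenic mice. The mean share was 3.28 ± 0.632% (SD, n = 4) in non-transgenic and 4.47 ± 2.72% (n = 3) in P301S mice. The difference of 1.19 percentage points did not exceed the spread between mice (exact permutation test, two-sided, p = 0.629). With 35 assignments of 4 mice against 3, this two-sided test could not give a p under 0.05. Without P301S replicate 3 the difference was -0.372 percentage points. The median number of UMIs per microglial nucleus was 1723, 1969, 1809 and 2254 in non-transgenic and 1495, 1912.5 and 2097 in P301S mice, which overlapped (exact permutation p = 0.686). Of the barcodes of the 2769 microglia, 1 occurred in more than 1 of the 7 libraries.

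The label microglia was checked against markers of other classes. The 8 genes that define the microglia summed to 6227 to 7750 CPM in non-transgenic and 6283 to 7251 CPM in P301S mice, against 6.06 to 13.5 CPM over the nuclei of the same mice with at most 1 of these genes, called other nuclei here. Of the 2769 microglia, 394 (14.2%) also held at least 3 markers of another brain cell class, as a doublet or a nucleus with much free RNA would. These mixed nuclei were deeper, so they made up 23.4 to 46.7% of the microglial UMIs in non-transgenic mice and 32.7 to 40.9% in P301S mice. A list of 7 general neuron genes, none of them at 0 in any mouse, summed to 10920 to 13020 CPM in non-transgenic and 9282 to 12730 CPM in P301S microglia. Other nuclei held 21300 to 22880 CPM in non-transgenic and 18880 to 21660 CPM in P301S mice. With the mixed nuclei left out these neuron genes still stood at 9394 to 10710 and 7110 to 9961 CPM. The tests across genes, the share of microglia and the depth were therefore also computed without the mixed nuclei, a choice made after the data were seen, while the shares of thinned nuclei were not. Border macrophages, the macrophages of the meninges and vessels, accounted for 62 nuclei with at least 2 of their markers, 36 in non-transgenic and 26 in P301S mice.

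The mouse reference holds no separate entry for human tau. Transgene carriers were told from the other mice by 3 long non-coding RNAs of chromosome 3, which were named here after their values were seen. Gm43049 (ENSMUSG00000105777, mm10 chr3:140692038-140760704) lay between 0.0142 and 0.0641 CPM in other nuclei of the 4 non-transgenic mice and at 10.8, 12.9 and 7.05 CPM in the P301S mice. The RNAs 4930590L14Rik and Gm32754, which lie nearby on the same chromosome, were higher as well. Over other nuclei they had 1 and 6 UMIs in the non-transgenic mice together against 330 and 225 UMIs in the P301S mice, ratios per UMI sequenced of 447 (95% interval 79.7 to 17700, exact binomial, counting error only) and 50.8 (23.0 to 140). In microglia Gm43049 had 0 UMIs in each non-transgenic mouse and 7, 9 and 15 UMIs in the P301S mice. The 4 other transgenic mice of the series lay between 6.77 and 10.6 CPM in other nuclei. Since the 3 RNAs were chosen for their difference between these 7 mice, only the 4 other mice were a check of the labels. These 3 were the only genes called in other nuclei, of 20247 tested (0.0148%), with a call defined as an adjusted p under 0.05 and an absolute log2 fold change over 0.1. They passed the filter on low counts through transgenic mice alone, and their calls are no support for a difference. Without a filter on low counts 5 genes were called there.

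In microglia no gene passed this threshold. Of 10714 genes tested, 0 (0%) were called with edgeR's quasi-likelihood test, 531 had an unadjusted p under 0.05, limma called 0 and DESeq2 called 1, Tifa. The genes with an unadjusted p under 0.05 were split between 276 higher (2.58% of the genes tested) and 255 lower (2.38%) in P301S mice. In 291 genes (2.72%) every P301S mouse lay above every non-transgenic mouse, and in 276 genes (2.58%) below. The median log2 fold change over all genes tested was -0.01. The filter asked for 9.74 CPM in at least 2 of the 11 mice, and 751 of the genes tested (7.01%) passed it through transgenic mice alone. A gene of that kind had to be higher in some transgenic mice. With the mixed nuclei left out, 4 of 9122 genes (0.0439%) rose and 0 fell, namely Tifa, Ptchd1, Ctse and Myo1e. Of these Ctse passed the filter on low counts through transgenic mice alone, so that its call is no support for a difference. Left out in turn together with the mixed nuclei, the single mice gave between 0 and 31 calls, with 0 without P301S replicate 3 and 31 without P301S replicate 1.

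Tifa encodes an adaptor that oligomerises downstream of the kinase Alpk1 and activates NF-κB through Traf6. Its level in microglia was 13.9, 20.3, 27.1 and 22.6 CPM in the non-transgenic mice and 47.3, 52.6 and 68.6 CPM in the P301S mice. Every P301S mouse lay above every non-transgenic mouse, and the log2 fold change was 1.45 ± 0.23 (SE), a 2.73-fold difference (edgeR, adjusted p = 0.0577; DESeq2, adjusted p = 0.0118; limma, adjusted p = 0.192). Without the mixed nuclei the levels were 18.5, 20.4, 30.8 and 22.8 CPM against 61.9, 68.3 and 87.8 CPM, and Tifa rose by 1.68 ± 0.23 (edgeR, adjusted p = 0.00271). In other nuclei the mean level was 7.67 CPM in non-transgenic and 8.12 CPM in P301S mice, a log2 fold change of 0.08 ± 0.14. The 4 other transgenic mice of the series lay at 55.8 and 40.4 CPM with Ikbkb deleted and at 82.7 and 61.6 CPM with active IKKβ, above the 4 non-transgenic mice too. Tifa (ENSMUSG00000046688) lies on the plus strand of chr3:127789805-127832164 in mm10. The long non-coding RNAs that told transgene carriers apart lie on the same chromosome. Whether its position there has a part in its difference was not tested, since the carriers share both.

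Ctse encodes cathepsin E, an endosomal aspartic protease. It had 0, 2, 1 and 0 UMIs in the microglia of non-transgenic mice and 7, 16 and 45 UMIs in P301S mice, or 0, 2.26, 1.59 and 0 CPM against 10.7, 15.9 and 18.8 CPM. Pooled over mice the ratio was 19.5 (95% interval 6.4 to 96.9, exact binomial, counting error only), from 3 UMIs against 68. The fitted log2 fold change, which at such counts depends on the prior count, was 4.02 ± 0.62 (edgeR, adjusted p = 0.0577) and 4.23 ± 0.74 without the mixed nuclei (adjusted p = 0.0295). It was 5.01 without non-transgenic replicate 2 and 3.40 without non-transgenic replicate 4. These sums were small, and the mean in other nuclei was 0.166 CPM against 0.803 CPM.

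Ptchd1, an X-linked gene for a membrane protein of the patched family, stood at 36.4, 52.0, 27.1 and 32.7 CPM in non-transgenic and 59.5, 97.3 and 83.6 CPM in P301S microglia. The groups did not overlap and differed by 1.13 ± 0.22 on the log2 scale (edgeR, adjusted p = 0.441). Without the mixed nuclei Ptchd1 rose by 1.44 ± 0.24 (adjusted p = 0.0295). Myo1e, which encodes an actin-based motor protein of the cell membrane, stood at 78.0, 90.3, 63.7 and 57.5 CPM against 102, 162 and 266 CPM. Here P301S replicate 3 was the highest and P301S replicate 1 closest to the non-transgenic mice. The log2 fold change was 1.35 ± 0.33 (adjusted p = 0.463) and 1.72 ± 0.30 without the mixed nuclei (adjusted p = 0.0295), and 0.90 ± 0.33 without P301S replicate 3. In other nuclei the means of Myo1e were 41.6 and 40.6 CPM.

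**Figure D1:**
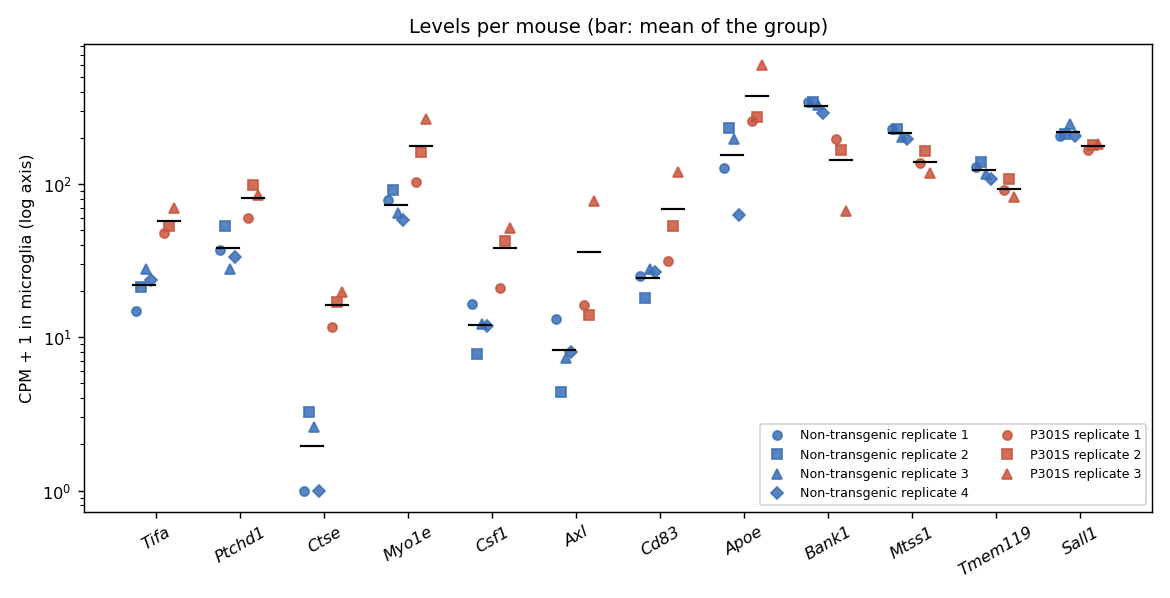
Level of 12 genes in the microglia of each mouse, as CPM + 1 on a log axis, with non-transgenic mice in blue, P301S mice in red and the mean of each group as a bar. Tifa, Ptchd1, Ctse and Myo1e show P301S mice above all non-transgenic mice, while for Axl 2 of the P301S mice, at 15.3 and 12.9 CPM, lie close to the highest non-transgenic mouse at 12.1 CPM and P301S replicate 3 lies at 77.0 CPM.

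The other genes among the 10 with the smallest p did not pass the test, and without the mixed nuclei Rab7b had too few counts to be tested and the others did not pass. Rab7b, a small GTPase of late endosomes, had 0, 0, 1.59 and 0 CPM in non-transgenic and 10.7, 3.97 and 14.2 CPM in P301S microglia. The sums behind these levels were 1 UMI over the 4 non-transgenic mice and 45 UMIs over the P301S mice, a ratio of 38.7 (95% interval 6.60 to 1560, counting error only). Rab7b, too, passed the filter only through transgenic mice, and its fitted log2 fold change was 6.87 without non-transgenic replicate 3 and 4.11 without P301S replicate 3. Rai14, an actin-binding protein, stood at 15.6, 32.8, 11.1 and 26.4 CPM against 41.2, 47.7 and 103 CPM (log2 fold change 1.59 ± 0.35, and 0.97 without P301S replicate 3). Tnfsf8, the ligand of CD30, stood at 13.9, 14.7, 12.7 and 4.67 CPM against 22.9, 30.8 and 48.1 CPM (1.75 ± 0.40). Both were higher in each P301S mouse than in any non-transgenic mouse. The non-coding RNA C030034L19Rik had a log2 fold change of 2.42 ± 0.50 on levels of at most 4.52 CPM in non-transgenic and at least 10.7 CPM in P301S mice, and also passed the filter through transgenic mice alone.

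Promoter windows were read for the 4 genes called without the mixed nuclei and for the 10 genes with the smallest p, from 250 bases before to 50 bases after the start of a RefSeq gene model (GRCm38.p6). Of these 11 genes 6 had a window, Ctse not among them. The search covered the κB motif (GGGNNTTTC), the PU.1 motif (GAGGAAG), the M-box (TCACGTGA) and the AP-1 motif (TGANTCA) on both strands. Over all 32851 windows 4.36%, 13.6%, 0.974% and 7.81% held them, in that order. A κB match occurred in 1 of the 2 windows of Tifa, 33 bases after the start, and a PU.1 match on the opposite strand of the Axl window, 131 bases before the start. The windows of Ptchd1, Myo1e, Rai14 and Tnfsf8 held no match to these letters. The 30 bases around each match are given 5′ to 3′ on the strand of the gene, because Tifa acts upstream of NF-κB and Axl is a DAM gene, with the match in capitals, and stand at chr3:127790677-127790706 (plus strand) and chr7:25788845-25788874 (minus strand).
Tifa, κB: gtcgttgtgatccGGGATTTTCcaattttc
Axl, PU.1 on the opposite strand: ccaaggtctcCTTCCTCctccccagcctct
These matches describe the letters of the windows and not binding of a factor.

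Of the DAM surface and matrix genes none passed the adjusted test in microglia. Of 24 genes found 19 were tested, 17 had a log2 fold change above 0, and 11 had an unadjusted p under 0.05, each of them higher in P301S mice, where 2.58% of all genes tested were higher at that level. The median log2 fold change was 0.71, against -0.01 over all genes tested. In 4 of the 19, Axl, Lgals3bp, Csf1 and Apoe, every P301S mouse lay above every non-transgenic mouse, where 2.72% of all genes did. However, 8 of the 19, Axl, Itgax, Lpl, Lgals3bp, Cd63, Lgals3, Mamdc2 and Cd52, passed the filter through transgenic mice alone, 4 of them among the 11, so these counts and the median are no support for a difference. Over the 10 members with a mean of at least 20 CPM, a limit set after the data were seen, 9 lay above 0, 7 were higher at an unadjusted p below 0.05, and the median was 0.48. That mean was taken over both groups, and Csf1, at 10.35 CPM over the pooled non-transgenic mice, reached it only through P301S mice. These values are therefore no support for a difference either. Ank, among the 11 and the 7, was detected more often in excitatory neurons than in microglia at equal depth. P301S replicate 3 weighed on these values, since without it 16 genes were tested, the median was 0.28 and 3 genes, Csf1, Axl and Ank, were higher at an unadjusted p under 0.05. That mouse was also the P301S mouse of the active IKKβ line and the one with most microglia, and the part of either in the result was not tested. With the line as a covariate the median was 0.73. Without the mixed nuclei the median was 0.79 over 18 genes, and in other nuclei it was 0.23 over 22 genes. The list was drawn up with earlier results of these libraries known and is no independent evidence of its direction.

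Among the DAM genes, Apoe, the lipid carrier that activated microglia make in quantity, was at 126, 232, 196 and 62.2 CPM in non-transgenic and 256, 273 and 595 CPM in P301S microglia (log2 fold change 1.34 ± 0.41; edgeR, adjusted p = 0.635). Csf1, a growth factor of macrophages, was at 15.6, 6.78, 11.1 and 10.9 CPM against 19.8, 41.7 and 51.0 CPM (1.90 ± 0.44; adjusted p = 0.463). Axl, a receptor for phosphatidylserine-bound ligands on dying cells, had a log2 fold change of 2.60 ± 0.60 (adjusted p = 0.463) and of 1.01 ± 0.46 without P301S replicate 3. The 3 genes separated the groups, but Axl by a small gap between 12.1 and 12.9 CPM.

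Itgax, the integrin CD11c, stood at 3.47, 3.39, 4.78 and 1.56 CPM in non-transgenic mice and at 1.53, 12.9 and 34.3 CPM in P301S mice (2.71 on the log2 scale, and 1.42 without P301S replicate 3). Lpl, lipoprotein lipase, stood at 5.20, 9.03, 0 and 5.44 CPM against 0, 37.7 and 36.4 CPM. In both genes P301S replicate 1 lay at or below the lowest non-transgenic mouse and the other P301S mice above all of them. Cst7, an inhibitor of cathepsins, had too few counts for the test, with 0 UMIs in each non-transgenic mouse and 1, 6 and 18 UMIs in P301S mice, which is at least 7.17-fold higher against a floor of 3 UMIs over the non-transgenic group. Spp1, Gpnmb, Fabp5 and Cox6a2 also had too few counts. Trem2 (123, 116, 92.3 and 87.1 CPM against 70.2, 125 and 138 CPM) and Tyrobp (45.1, 39.5, 46.2 and 28.8 CPM against 29, 43.7 and 42.2 CPM) overlapped between the groups.

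Lipid handling genes included Apoe and Lpl. Of 17 tested 9 were above 0 and 5 were higher at an unadjusted p below 0.05 (2.58% of all genes tested), the other 3 being Dgat2, Soat1 and Npc2, which esterify or export lipids, and no member was lower at that level. Dgat2, which makes triglycerides, had 3.47, 7.91, 1.59 and 7.78 CPM in non-transgenic and 13.7, 10.9 and 14.6 CPM in P301S microglia. Lpl and Dgat2 passed the filter through transgenic mice alone. Over the 12 members with a mean of at least 20 CPM 3 were higher at that level, with a median of 0.12. As for the DAM genes, this limit was set after the data were seen, and these values are no support for a difference. Abca1 and Lrp1, the list's most abundant members beside Apoe, had log2 fold changes of -0.07 ± 0.21 and -0.11 ± 0.14. When P301S replicate 3 was left out, 11 of 17 members lay above 0 with a median of 0.13, and 0 had an unadjusted p under 0.05 in either direction.

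Homeostatic genes were mostly lower in P301S microglia, with 2 of 25 tested members above 0, 6 with an unadjusted p under 0.05, each of them lower (2.38% of all genes tested), and a median log2 fold change of -0.30. In 6 members, Tmem119, Sall1, Sparc, Adgrg1, Slco2b1 and Bank1, every P301S mouse lay below every non-transgenic mouse, where 2.58% of all genes did. None was called. Without P301S replicate 3 the median was -0.16, with 4 of 25 above 0. Without the mixed nuclei it was -0.25. In other nuclei, where some but not all of these genes are close to background, it was 0.05, and Sparc was the highest member at 0.76.

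Bank1, an adaptor of B cell receptor and Toll-like receptor signalling, had the largest difference of the list, at 341, 341, 326 and 289 CPM in non-transgenic and 197, 166 and 65.2 CPM in P301S microglia (-1.26 ± 0.30; edgeR, adjusted p = 0.463). Bank1 lies on the chromosome of the long non-coding RNAs that told transgene carriers apart. Whether that position has a part in its difference was not tested, since the carriers share both. Sall1, the transcription factor that maintains microglial identity, stood at 206, 210, 247 and 205 CPM against 166, 178 and 181 CPM (-0.30 ± 0.13). Tmem119 stood at 128, 138, 115 and 107 CPM against 90.0, 106 and 81.1 CPM (-0.41 ± 0.20). Sparc, a secreted matrix protein, stood at 215, 201, 205 and 180 CPM against 105, 161 and 159 CPM (-0.47 ± 0.16). In these 4 genes the groups did not overlap, although for Tmem119 the gap was narrow. P2ry12, the ADP receptor of surveying microglia, ranged from 535 to 901 CPM in non-transgenic and from 574 to 788 CPM in P301S mice and overlapped. Cx3cr1, the fractalkine receptor, overlapped as well (-0.32 ± 0.16), as did Mef2c (-0.13 ± 0.16).

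**Figure D2:**
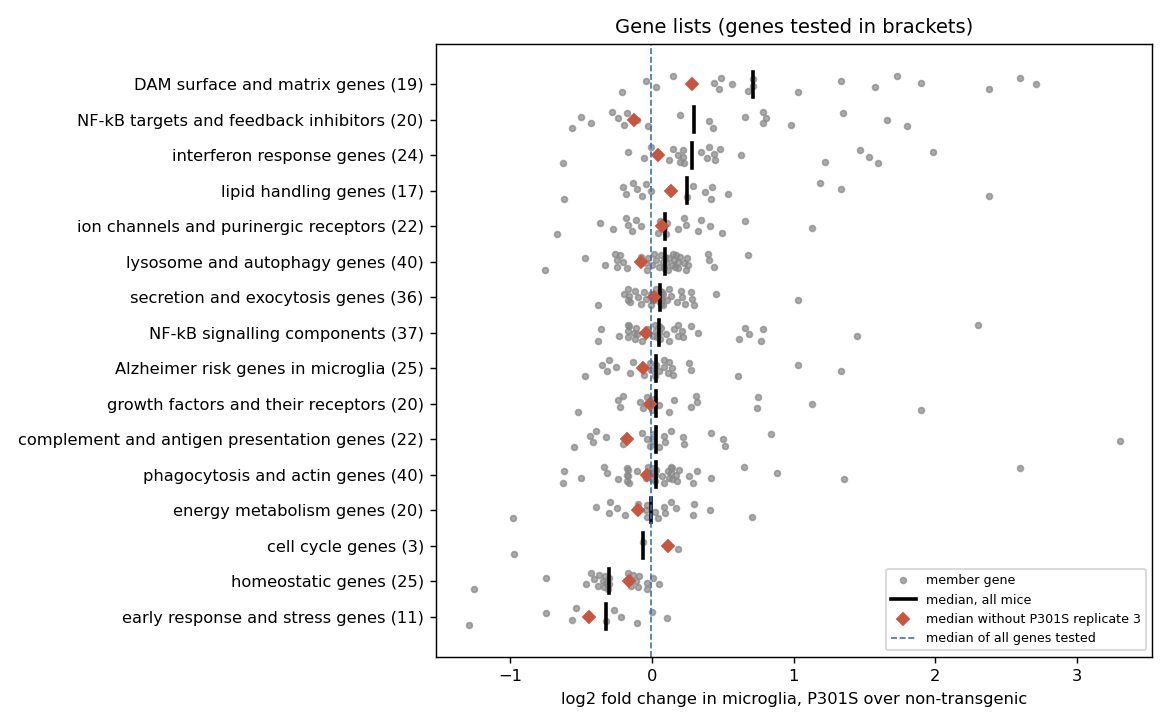
Log2 fold change of the tested members of each gene list in microglia, P301S minus non-transgenic, with 1 point per gene, the median of each list as a bar, the median without P301S replicate 3 as a diamond and the median of all genes tested as a dashed line. DAM genes have a median of 0.71, which includes 8 of 19 members that passed the filter through transgenic mice alone and is 0.48 over the 10 members with a mean of at least 20 CPM, homeostatic genes lie mostly below 0 (median -0.30), and secretion (median 0.06) and phagocytosis genes (0.03) lie around 0.

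NF-κB signalling was examined because the mice came from a study of IKKβ. Of 37 tested signalling components 24 were above 0, 7 had an unadjusted p under 0.05, each of them higher (2.58% of all genes tested), and the median was 0.05. They included Tifa, Tank, Alpk1, Ikbke, Relb and Irak2. Tank, a scaffold of TRAF and IKK-related kinases, was at 57.2, 70.0, 63.7 and 58.3 CPM in non-transgenic and 83.9, 90.4 and 107 CPM in P301S microglia (0.61 ± 0.15; edgeR, unadjusted p = 0.00107). Alpk1, the sensor kinase upstream of Tifa, was at 20.8, 26.0, 43.0 and 31.9 CPM against 45.8, 32.8 and 62.3 CPM and overlapped (0.68 ± 0.26). Its gene lies on the same chromosome as Tifa, and the part of that position was not tested. Log2 fold changes were -0.12 ± 0.13 for the kinase gene Ikbkb, 0.02 ± 0.15 and 0.12 ± 0.22 for the NF-κB subunits Nfkb1 and Rel, 0.79 ± 0.34 for the subunit Relb, and 0.18 ± 0.17 for the adaptor Traf3. Ikbke, which passed the filter through transgenic mice alone and was at 2.30 on the log2 scale, stood at 0.25 ± 1.33 without P301S replicate 3 and at 3.12 without non-transgenic replicate 2. The median of the list was -0.04 without that P301S mouse, with 3 members higher and 2 lower.

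Of the NF-κB targets and feedback inhibitors 46 were found and 20 had enough counts for the test, since cytokine genes such as Tnf, Il1b, Il6 and Il1rn were near 0 in these nuclei. Tnf had at most 1.73 CPM in any of the 7 mice. Of the 20 tested 11 were above 0, and the median was 0.30. Of these 20, 8 passed the filter through transgenic mice alone, Plaur, Ccl4 and Nfkbia among them. Over the 9 members with a mean of at least 20 CPM, the limit set after the data were seen, the median was -0.03, with 4 above 0. At an unadjusted p under 0.05 Cd83, Plaur, Ccl4 and Relb were higher and Fcgr1 was lower, against 2.58% and 2.38% of all genes tested. Cd83, a surface glycoprotein of activated myeloid cells, stood at 24.3, 16.9, 27.1 and 25.7 CPM against 30.5, 52.6 and 119 CPM. It lay above the non-transgenic mice in each P301S mouse (1.66 ± 0.38), but by 0.87 ± 0.34 without P301S replicate 3. Nfkbia, which encodes the main inhibitor of NF-κB and is its target, had 5.20, 2.26, 20.7 and 8.55 CPM against 19.8, 6.95 and 18.4 CPM and overlapped (0.81 on the log2 scale, and 1.4 without non-transgenic replicate 3). Ccl4, a chemokine, moved from 1.80 to 2.43 without non-transgenic replicate 1. Without P301S replicate 3 the median of the list turned to -0.12.

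Interferon response genes were above 0 in 20 of 24 tested members, with a median of 0.29. The 6 with an unadjusted p under 0.05, Ifi207, Nlrc5, Sp100, Ifi204, Ifih1 and Stat2, were higher in P301S mice, against 2.58% of all genes tested. Ifi207, Nlrc5 and Ifi204 passed the filter through transgenic mice alone. Over the 15 members with a mean of at least 20 CPM 13 lay above 0 and 3 were higher at that level, with a median of 0.22. This limit was set after the data were seen and used the mean of both groups, so these values are no support for a difference. Ifi207, a DNA-binding protein of the interferon-inducible p200 family, had 8.66, 6.78, 6.37 and 2.33 CPM in non-transgenic and 15.2, 12.9 and 18.4 CPM in P301S microglia. Other nuclei showed a median of 0.37 over 37 members, 33 of them above 0. Without P301S replicate 3 the microglial median was 0.05, and Nlrc5, Ifi204 and Sp100 went from 1.98, 1.59 and 1.22 to 0.53, 0.42 and 0.51 on the log2 scale. Without non-transgenic replicate 3 Nlrc5 and Ifi204 stood at 2.71 and 2.42.

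Complement and antigen presentation genes were above 0 in 13 of 22 members, with a median of 0.03 in microglia and 0.31 in other nuclei. In microglia 1 member, H2-Q7, was higher at an unadjusted p under 0.05, against 2.58% of all genes tested. It passed the filter through transgenic mice alone, and its log2 fold change of 3.30 was 0.97 ± 1.12 without P301S replicate 3. The microglial median turned to -0.17 without P301S replicate 3, with 5 of 21 above 0. C1qa was at 246, 197, 177 and 109 CPM in non-transgenic and 139, 199 and 194 CPM in P301S microglia, and C1qb at 277, 220, 207 and 153 CPM against 209, 220 and 246 CPM. These initiators of the classical complement pathway thus overlapped between the groups. C3 had 0 UMIs in every non-transgenic mouse and 1 UMI in the P301S mice.

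Lysosome and autophagy genes were above 0 in 26 of 40 members, with a median of 0.09, and the 4 with an unadjusted p under 0.05 were higher in P301S mice, against 2.58% of all genes tested. Mitf, a transcription factor of lysosomal genes, was at 452, 435, 436 and 378 CPM in non-transgenic and 500, 504 and 669 CPM in P301S microglia (0.40 ± 0.15). Atp6v1b2, a subunit of the lysosomal proton pump, was at 98.8, 82.4, 97.1 and 71.5 CPM against 120, 100 and 119 CPM (0.40 ± 0.16). In both genes the groups did not overlap. The proteases Ctsz and Ctsb, which also belong to the DAM list, had log2 fold changes of 0.68 ± 0.26 and 0.44 ± 0.19 and overlapped. The median of the list turned to -0.08 without P301S replicate 3, with 14 of 40 above 0. Past an unadjusted p of 0.05 that left 0 higher members and 1 lower, Tfeb.

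Secretion and exocytosis genes, of interest because the study asked how microglia release tau, showed 0 of 36 members past an unadjusted p of 0.05 and a median of 0.06. Rab27a, a GTPase of exosome release, was at 88.4, 68.9, 87.5 and 85.5 CPM in non-transgenic and 67.1, 88.4 and 97.4 CPM in P301S mice. Phagocytosis and actin genes had a median of 0.03, and of 40 tested Axl, Myo1e, Arhgap24 and Fmnl2 were higher and Mtss1 and Fcgr1 lower at an unadjusted p below 0.05, again against 2.58% and 2.38% of all genes tested. Mtss1, which bends membranes and binds actin, was at 229, 227, 201 and 196 CPM in non-transgenic and 136, 164 and 117 CPM in P301S microglia, with each P301S mouse below (-0.63 ± 0.15). Fmnl2, a formin that elongates actin filaments, was at 328, 322, 355 and 398 CPM against 442, 395 and 566 CPM. None of the 40 members was called in either direction. The median of the phagocytosis and actin genes was -0.04 without P301S replicate 3.

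Of the growth factors and their receptors 11 of 20 lay above 0 (median 0.03, and -0.01 without P301S replicate 3). Beside Csf1, Pdgfa, which passed the filter through transgenic mice alone, was higher (0.74 ± 0.31) and Il17ra lower (-0.52 ± 0.15) at an unadjusted p under 0.05. At that level 2.58% of all genes tested were higher and 2.38% lower. Il17ra, a receptor chain for interleukin 17, was at 81.5, 82.4, 71.6 and 92.5 CPM in non-transgenic and 62.5, 61.6 and 51.9 CPM in P301S microglia. The receptors of TGF-β, which holds microglia in the homeostatic state, were close to equal, with -0.03 ± 0.14 for Tgfbr1 and 0.05 ± 0.16 for Tgfbr2. Among ion channels and purinergic receptors 14 of 22 lay above 0 (median 0.09). The members with an unadjusted p under 0.05, Ptchd1 and Cacna1a, were higher, against 2.58% of all genes tested. Ptchd1 stood on this list although it encodes a membrane protein of the patched family.

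Of the Alzheimer risk genes 14 of 25 lay above 0, with a median of 0.03 that was -0.06 without P301S replicate 3, and none was called. Past an unadjusted p of 0.05, 3 were higher (Ms4a6d, Apoe and Ptk2b) and 3 lower, where 2.58% and 2.38% of all genes tested were. Ms4a6d, a membrane protein of the MS4A cluster, was at 15.6, 12.4, 9.55 and 8.55 CPM in non-transgenic and 18.3, 22.8 and 25.1 CPM in P301S microglia (1.03 ± 0.30). Rin3, a guanine nucleotide exchange factor of early endosomes, was at 154, 158, 135 and 158 CPM against 110, 129 and 118 CPM (-0.35 ± 0.13). For both genes no mouse of one group reached into the range of the other.

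Energy metabolism genes had a median of -0.01 over 20 members (-0.09 without P301S replicate 3), 1 of them (Slc2a1, 0.71 ± 0.32, which passed the filter through transgenic mice alone) higher at an unadjusted p under 0.05, against 2.58% of all genes tested. Early response and stress genes, which are induced within minutes of a stimulus, had 1 of 11 above 0 and a median of -0.33. Jun was lower at an unadjusted p under 0.05 (-1.29 ± 0.48), against 2.38% of all genes tested. Jun lay at 6.93, 13.6, 9.55 and 12.4 CPM in non-transgenic and 4.58, 7.95 and 2.51 CPM in P301S microglia. Of 24 cell cycle genes 3 had enough counts for the test. Ccnd1, a cyclin of the G1 phase, was the lower of them, at 26.0, 26.0, 12.7 and 16.3 CPM against 9.15, 16.9 and 6.69 CPM.

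To see how DAM transcripts were spread over nuclei at equal depth, each microglial nucleus was thinned to 1000 UMIs. Between 252 and 402 nuclei per non-transgenic mouse and 289 to 822 per P301S mouse were deep enough. DAM genes gave a mean of 1.25, 1.27, 1.12 and 0.75 UMIs per nucleus in non-transgenic mice and 1.28, 1.78 and 2.64 UMIs in P301S mice. P301S replicate 1 thus lay next to the highest non-transgenic mouse. The share of nuclei with at least 3 such UMIs, the 95th percentile of pooled non-transgenic nuclei, was 13.9, 13.6, 9.15 and 4.73% in non-transgenic and 15.2, 23.1 and 37.7% in P301S mice. The groups' mean UMIs per nucleus were 1.10 ± 0.240 (SD, n = 4) and 1.90 ± 0.685 (n = 3), a ratio of 1.73 that was 1.39 without P301S replicate 3. In 500 excitatory neurons per mouse, nuclei with at least 3 UMIs of Slc17a7 thinned in the same way, DAM genes gave 0.382 to 0.508 UMIs per nucleus in non-transgenic and 0.408 to 0.56 UMIs in P301S mice, and 1 to 2.4% of nuclei held at least 3. For the member Ank the share of nuclei with a UMI was 24.2 to 36.4% in neurons and 11.4 to 24.9% in microglia, so that its detection in microglia is not read as expression. Its UMIs are still part of the DAM sums given here. At 500 UMIs, where every microglial nucleus was deep enough, the share with at least 2 DAM UMIs was 8.71 to 16.2% in non-transgenic mice and 13.8, 19.8 and 32.0% in P301S mice, and the groups overlapped. At 1500 UMIs, with 200 to 384 nuclei per non-transgenic mouse and 148 to 768 per P301S mouse, the share with at least 5 was 3.65 to 9% against 10.1, 15.0 and 29.7%. The mean UMIs per nucleus overlapped at both of these depths, with ratios of 1.73 and 1.71. At 1000 UMIs homeostatic genes gave 13.6 ± 1.5 and 12.5 ± 0.838 UMIs per nucleus and overlapped. Secretion and exocytosis genes, at 3.88 ± 0.259 and 4.19 ± 0.0773 UMIs, were higher in each P301S mouse at that depth. Early response and stress genes, at 0.31 ± 0.0596 and 0.249 ± 0.00853 UMIs, were lower in each. Both lists overlapped at 500 and 1500 UMIs. The remaining lists overlapped at 1000 UMIs.

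**Figure D3:**
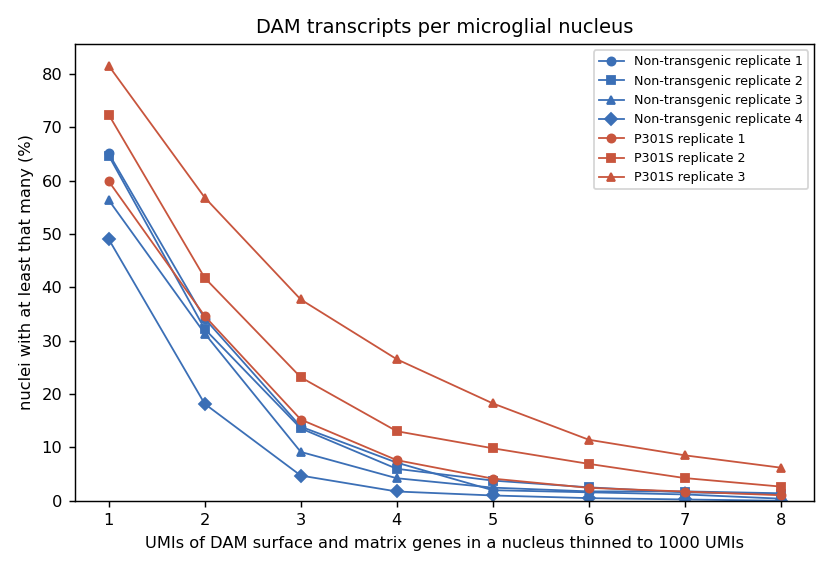
Share of microglial nuclei, in percent, with at least a given number of DAM gene UMIs after thinning to 1000 UMIs, with 1 line per mouse, non-transgenic in blue and P301S in red. At 3 UMIs P301S replicates 2 and 3 stand at 23.1 and 37.7%, and P301S replicate 1 at 15.2% lies next to the highest non-transgenic mouse at 13.9%.

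At this depth Apoe was detected in 9.13, 13.2, 9.15 and 3.98% of non-transgenic and 17.3, 15.4 and 34.3% of P301S microglia. Without thinning the shares were 14.2, 18.6, 12.8 and 12.7% and 22.6, 23.4 and 50.2%. In excitatory neurons thinned in the same way Apoe was detected in 1 to 2% of nuclei. The share that free RNA could give in microglia was not measured. Tifa was detected in 1.59, 2.84, 3.52 and 2.24% against 5.19, 6.12 and 7.42% of microglia, and in 0.4 to 1% of neurons. For both genes each P301S mouse lay above all non-transgenic mice. Myo1e was detected in 4.23 to 7.94% of non-transgenic and 10.0 to 17.5% of P301S microglia, and in 1.6 to 3.4% of neurons.

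Whether the P301S difference in microglia was unlike that in the other nuclei of the same mice was tested directly. An edgeR fit with 1 term per mouse called 58 of 20156 genes (0.288%), 35 with a higher and 23 with a lower P301S log2 fold change in microglia than in other nuclei. Among them were Myo1e (1.36 ± 0.17), Apoe (1.10 ± 0.14), Axl (2.31 ± 0.38), Tifa (1.31 ± 0.26) and, in the other direction, Bank1 (-1.15 ± 0.17), Mtss1 (-0.83 ± 0.15) and Sparc (-1.21 ± 0.17). For Sparc much of this lay in other nuclei, where its log2 fold change was 0.76, against -0.47 in microglia. Limma on the log ratio of microglia to other nuclei in each mouse called 0 of 20156 (0%), with 1099 at an unadjusted p under 0.05 and a smallest adjusted p of 0.586. For Myo1e the ratio fit gave 1.24 ± 0.34 and for Bank1 -1.17 ± 0.24. For some genes the size differed as well, and Lpl stood at 1.95 in the edgeR fit and at 0.78 ± 2.01 in the ratio fit. Over the 58 genes the median error was 1.38 times that of edgeR, against 0.969 times over all genes tested. The gene with the smallest p in the edgeR fit, Rbm47, had a microglial log2 fold change of 0.00 ± 0.13 and differed through other nuclei, where it stood at 11.9 CPM in P301S replicate 1 and 0.708 to 4.07 CPM in the other 6 mice. Without P301S replicate 3 the edgeR fit called 9 genes. Since the calls depended on the test, no gene is called particular to microglia here.

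**Figure D4:**
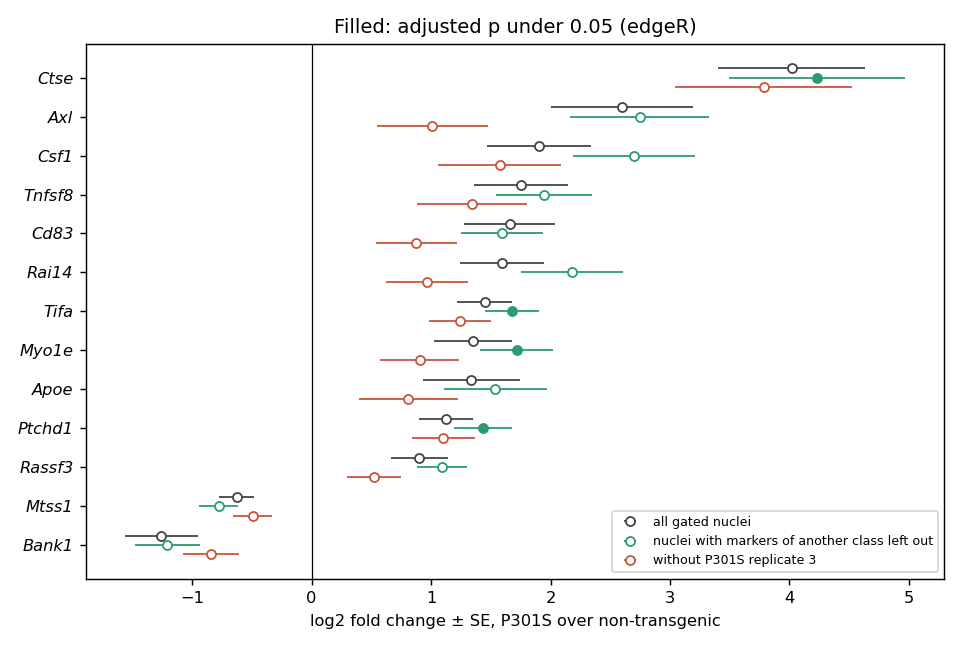
Log2 fold change of 13 genes in microglia, P301S minus non-transgenic, with its standard error, over all gated nuclei (grey), without the mixed nuclei (green) and without P301S replicate 3 (red). Filled points passed an adjusted p of 0.05. Tifa ranges from 1.24 without P301S replicate 3 to 1.68 without the mixed nuclei, while Axl goes from 2.60 to 1.01 without P301S replicate 3.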

How the data were processed

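Single nuclei of frozen cortex were sorted by their DNA stain and sequenced from 1 mouse per library with the 10x Chromium 3′ kit. The deposited files hold raw UMI counts per gene and nucleus, which the authors made with Cell Ranger 3.1.0 on mm10 with unspliced transcripts counted, not normalised. The study removed doublets only after this step, so the matrices still hold them, and no doublet caller was run here. Gene coordinates are those of GENCODE M21.

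Counts were summed per mouse over the gated microglia and over nuclei with at most 1 gate gene (other nuclei). After filterByExpr, genes were tested in edgeR 4.0.16 (quasi-likelihood, TMM, 1 term per genotype, 11 mice), with limma 3.58.1 and DESeq2 1.42.0 as alternatives. A call needed a Benjamini-Hochberg adjusted p under 0.05 and an absolute log2 fold change over 0.1. CPM carry the TMM factors. The common biological coefficient of variation of the microglial sums was 14.8%. Replicates are separate mice, and p-values rest on the spread between them. Shares and medians were compared by exact permutation over 35 assignments, too few for a two-sided p under 0.05. The 8 gate genes were not tested for a difference, intervals were not given for shares of nuclei of 1 mouse, and the edgeR fits and the ratio fit were tested on simulated data. Exchange of nuclei between libraries was checked by shared barcodes of the microglia.

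The genes named were any called, the 10 with the smallest p, a list of single genes, and from each list the 3 members with the highest mean. Others named for their groups or p-values within the lists were chosen after their values were seen. So were Bank1, Mtss1, Sparc, Rbm47, Spp1 and the 3 long non-coding RNAs of chromosome 3. The members of the 16 lists and the comparison itself were chosen with earlier results of these data known. Aldoa, whose symbol has more than 1 entry, was left out, and Clec7a and Mx2 were not analysed here. A few genes that the rule names are not reported here. Alternatives without the mixed nuclei and the ratio fit were added after seeing the data.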

Additional observations from a re-analysis of the deposited data

Results flagged for a closer look

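Among 97 sets of values of the 4 non-transgenic mice (levels of the named genes, shares, depths and list sums), 5 had 1 mouse far from the other 3 by Dixon's test at its 95% limit, where chance gives about 1 in 20. They were Rab7b at 1.59 CPM and Sall1 at 247 CPM in replicate 3, Rab27a at 68.9 CPM in replicate 2, and, per nucleus thinned to 1000 UMIs, the interferon response genes at 1.21 UMIs and the Alzheimer risk genes at 5.79 UMIs. Groups of 3 mice were not examined in this way.

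The P301S log2 fold change differed between microglia and other nuclei by the edgeR interaction test for 10 of the genes named by the rule. Of all genes tested 0.288% were called, but the rule names some genes for a small p in these same mice. That count is therefore no support for a difference. The difference was 1.31 for Tifa, 1.16 for Ptchd1, 1.52 for Rai14, 2.31 for Axl, 1.33 for Cd83, 1.10 for Apoe, 1.47 for Csf1, 1.95 for Lpl, 0.56 for Ank and 1.36 for Myo1e. Limma on the ratio of microglia to other nuclei in each mouse called 0 genes, these included, with a smallest adjusted p of 0.586. Lpl and Ank overlapped between the groups within microglia, and the other 8 did not, where 2.72% of all genes tested were higher in every P301S mouse. Tifa, Ptchd1, Rai14, Axl and Cd83 were named for their small p in these same mice. Apoe, Csf1 and Myo1e were on the list of single genes, and their separation is in the same sums that entered the edgeR test. The separation of these 8 genes is no further support.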

How the results depend on the processing

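The number of genes called in microglia (0) was also 0 with DESeq2 size factors, limma, the 7 mice alone, age as a covariate, at least 4 gate genes, border macrophages left out, sums thinned to equal depth and each mouse left out in turn. It was 1 with DESeq2 and 1 with the line as a covariate, Tifa in both, and 89 without a filter on low counts (70 higher, 19 lower of 21807). Without the mixed nuclei it was 4, and then 4 with DESeq2, 3 with limma, 20 with the line as a covariate, 9 with the 7 mice alone, and 0 to 31 when single mice were left out. The cause was not tested. Other nuclei gave 3 calls, 5 without a filter, and 3 to 4 when single mice were left out. The test of the difference gave 58 calls, 9 to 88 when single mice were left out, 0 with limma on ratios and 0 with limma on ratios without the mixed nuclei. The difference in microglial share ranged from -0.372 to 2.09 percentage points when single mice were left out, and that in median UMIs, -104, from -235 to 66.0. It turned to 1.17 without non-transgenic replicate 4 and to 66.0 without P301S replicate 1. With the replicate number as a block 0 genes were called in microglia and 3 in other nuclei. The deviations of same-numbered mice of a line correlated at -0.02, 0.11 and 0.14, so the numbers were not taken as pairs, and not every mouse correlated best with its own number. Of 2338 values of 79 named genes none was reversed beyond its error. In 225 the sign differed with an estimate within 1 SE of 0, counted here as unchanged, and 75 passed the threshold only under an alternative. Genes too sparse for the filter, such as Cst7, could not be tested at this depth.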
